A study of Caenorhabditis elegans with 40 samples.

Results

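The nuclear hormone receptor genes of *C. elegans* that carry the name nhr were followed in RNA-seq libraries of whole L3 larvae, in which a subunit of condensin, cohesin or the dosage compensation complex had been cut or degraded. Members were all genes whose WBcel235 symbol starts with nhr-, leaving out *nhr-23*, *nhr-25* and *nhr-85*, with at least 10 reads in at least 20 of the 40 samples. Of 269 such symbols in the annotation, 196 were members, 70 were under the read minimum and 3 were left out. Among the members 16 lay on the X chromosome and 180 on the autosomes, with 10 on chromosome I, 11 on II, 6 on III, 27 on IV and 126 on V. In all, 13982 genes were tested, of which 2161 were X-linked and 11809 autosomal.

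The 40 samples formed 12 groups in 4 batches, and every strain carried a TEV protease under the heat-shock promoter hsp-16.2p (ubsSi20). Larvae were grown for 3 h at 22 °C, heat-shocked for 30 min at 34 °C to make the protease, and kept for a further 19 h at 22 °C. In batch 1 the TEV control, which has no TEV site in any target, was compared with strains in which the protease cuts DPY-26 (dpy-26(ubs4[FLAG-TEVcs])), KLE-2 (kle-2(ubs14[FLAG-TEVcs])) or SCC-1 (scc-1(ubs19[FLAG-TEVcs])), with 4 samples in each group. In batch 2 the TEV control was compared with cleavage of COH-1 (coh-1(ubs26[FLAG-TEVcs])) and of COH-1 together with SCC-1, with 3 samples each. Batch 3 held 3 samples each of DPY-26 cleavage combined with degradation of SDC-3 (sdc-3(ubs20[N-term AID]), a degron that auxin and the ubiquitin ligase subunit TIR1 turn on), of a TIR1 auxin control (xeSi376[eft-3p::TIR1::mRuby], driven by the broadly active eft-3 promoter, with no degron and no cleavage site) and of a TEV auxin control with no TIR1, all in 1 mM auxin. Batch 4 held 3 samples of the SDC-3 degron strain with 1 mM auxin and 3 with the solvent ethanol. The protease and the degron act on proteins, and the amount of protein left is not measured by RNA-seq. The study speaks of biological replicate batches for the COH-1 libraries, and for the other groups nothing in the labels says whether replicates came from separate cultures, so p-values there measure the spread between samples that may be partly technical. In whole larvae, fewer cells of a type and less RNA per cell cannot be told apart.

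Nuclear hormone receptors are transcription factors with a zinc-finger DNA-binding domain and, in most members, a ligand-binding domain that can sense lipids, steroids or metabolites. Nematodes hold far more of these genes than vertebrates or flies, most of them expanded from an HNF4-like ancestor and many lying next to each other on chromosome V, and a small number are orthologues of receptors found in other animals. In *C. elegans* the best-known members set fat storage, the propionate shunt, responses to food, toxins and pathogens, and the moulting cycle. The X chromosomes of hermaphrodites are turned down by the dosage compensation complex, which holds a condensin (condensin I-DC) that shares DPY-26 with condensin I and is brought to X by SDC-3 and its partners. KLE-2 belongs to condensin II, SCC-1 is the kleisin of mitotic cohesin and COH-1 the kleisin of a cohesin found in both dividing and non-dividing cells.

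The libraries held 20460404 to 88427247 reads, and the median number of reads per member ran from 10 to 8559 with a median of 216.5 over members. KLE-2 cleavage replicate 3 and SDC-3 degron without auxin replicate 3 stood apart, with TMM factors of 0.68 and 0.76 against 0.913 to 1.151 in the other 38 libraries. The *dpy-26* mRNA fell after DPY-26 cleavage, to 28.6, 26.7, 28.5 and 34.3 CPM (read counts scaled to one library size, after TMM scaling over all 40 libraries) from 47.3, 46.1, 45.6 and 50.4 CPM in the TEV control. The *kle-2* mRNA was at 25.2, 27.4, 20.3 and 24.6 CPM after KLE-2 cleavage and at 40.2, 38.7, 38.9 and 38.0 CPM in the control, so the cut strains also carried less of these messages. All 10 markers of each of germline, neurons, intestine, epidermis and moult, muscle and later stages were found in the files, and 0 to 2 of the later-stage genes were at 0 in all samples of a group. The later-stage list mixes cuticle genes (*col-19*, *bli-2*, *rol-6*, *col-7*) with yolk (*vit-2*, *vit-5*, *vit-6*) and sperm genes (*msp-19*, *msp-78*, *spe-9*). Which of them make up its sums is not given, so these sums are not a measure of stage alone.

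Levels were set side by side per length, in TPM (reads divided by transcript length and scaled to one total in every library), over 6 TEV controls of batches 1 and 2. The remaining library, TEV control batch 2 replicate 1, was on a different TPM scale and was left out after this was seen. The 16 X-linked members had a median of 8.92 TPM (range 0.785 to 52.3) beside a median of 6.57 TPM over all X-linked genes tested. The 180 autosomal members had a median of 3.04 TPM (range 0.228 to 91.2) beside 8.83 TPM over all autosomal genes. The low median came mainly from chromosome V, where members had a median of 2.34 TPM beside 6.08 TPM over all genes of that chromosome. Members on chromosomes I to IV had a median of 5.31 TPM beside 9.70 TPM over all genes there. The receptor with the highest level was *nhr-97* on chromosome IV at 91.2 ± 16.2 TPM (SD, n = 6). It was followed by *nhr-114* at 57.7 ± 11.7 TPM, a receptor tied to the response to diet, and by the X-linked *nhr-17* at 52.3 ± 33.6 TPM. Next came *nhr-68*, a transcription factor of the propionate shunt, at 49.3 ± 14.03 TPM, and *nhr-49*, the HNF4-like activator of fat burning and desaturation, at 43.7 ± 5.87 TPM. Each of these overlapped the next in rank in its single-library values. Differences between receptors within a library were not tested, so the order of neighbours is not established.

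**Figure D1:**
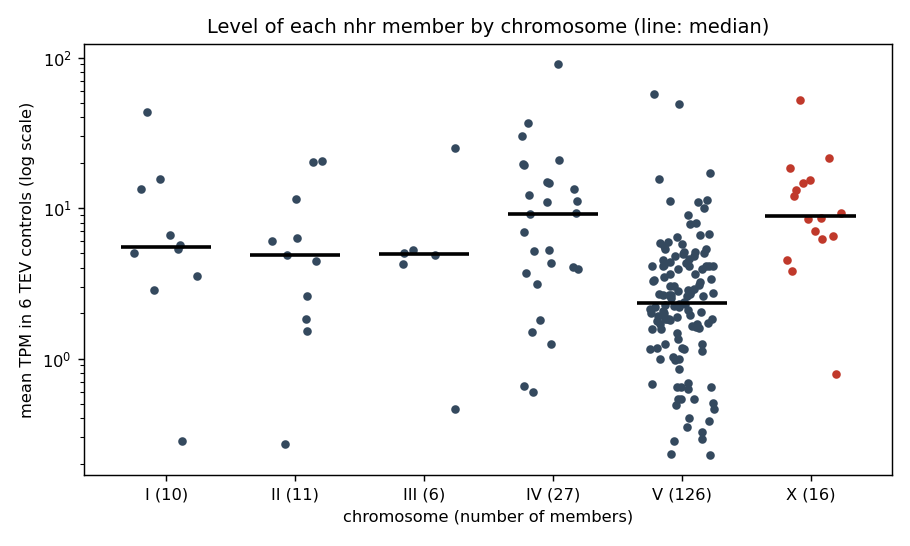
Level of the 196 nhr members in TPM (log axis, averaged over 6 TEV control libraries of batches 1 and 2), by chromosome, with each point a member and the line the median of the members. The median is 2.34 TPM on chromosome V and 8.92 TPM on X, and *nhr-97* on chromosome IV is the highest at 91.2 TPM.

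X-linked receptors rose after DPY-26 cleavage. Of the 16 X-linked members 13 rose and 0 fell at an adjusted p under 0.05 (quasi-likelihood F-test of edgeR, p-values adjusted by Benjamini-Hochberg over all 13982 genes), and 15 of 16 were above 0. This was 81.2% of the X-linked members, and over all X-linked genes 69.2% rose and 0.509% fell. The median log2 fold change was 0.70 for the members and 0.61 for all X-linked genes, so the receptors moved with their chromosome. An unadjusted p under 0.05 gave 14 higher and 0 lower, and DESeq2 also gave 0 lower. The DPY-26, KLE-2 and SCC-1 groups share the same 4 control samples, and their fold changes are not independent of each other.

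The X-linked receptor with the highest TPM among those that rose was *nhr-40* (X:2594003-2606732, plus strand), which acts in embryonic muscle development. It had 45.2, 39.2, 50.8 and 48.3 CPM in the 4 TEV controls and 81.4, 71.2, 71.6 and 75.04 CPM after DPY-26 cleavage. All 4 cut samples lay above all 4 controls, and the log2 fold change was 0.70 (SE 0.09, edgeR adjusted p = 0.00107). Its exons overlap those of T03G6.7 on the same strand, so reads there cannot be told apart. *nhr-45*, which takes part in mitochondrial surveillance, was at 37.4, 36.9, 34.5 and 30.6 CPM in the controls and at 52.5, 49.6, 53.4 and 57.8 CPM after cleavage. The groups did not overlap, with a log2 fold change of 0.61 (SE 0.08, edgeR adjusted p = 0.00133). *nhr-32* gave the smallest adjusted p of the X-linked members, with 23.7, 19.5, 24.2 and 22.96 CPM in the controls and 39.3, 38.0, 36.7 and 39.7 CPM in the cut samples (log2 fold change 0.77, SE 0.08, edgeR adjusted p = 0.000505). *nhr-14*, which acts in intestinal iron balance and immunity, had 22.4, 20.04, 22.1 and 21.6 CPM in the controls and 38.8, 32.8, 32 and 31.3 CPM after cleavage. That was a log2 fold change of 0.65 (SE 0.08, edgeR adjusted p = 0.00111), again with no overlap.

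The largest log2 fold change on X was that of *nhr-120*, at 0.95 (SE 0.19, edgeR adjusted p = 0.00870), from 20.8, 13.9, 17.5 and 12.3 CPM to 33.3, 39.8, 24.7 and 27.4 CPM. *nhr-28* rose by 0.81 (SE 0.11), *nhr-35* by 0.78 (SE 0.09), *nhr-71* by 0.73 and *nhr-3* by 0.70 (SE 0.09), each with all cut samples above all controls. Smaller rises also passed the test, such as those of *nhr-1*, at 0.55 (SE 0.12, edgeR adjusted p = 0.0102), and of *nhr-48*, a relative of the steroid receptor DAF-12, at 0.37 (SE 0.07, edgeR adjusted p = 0.00796). *nhr-167*, the member on X with the fewest reads among those that rose, went from 0.559, 0.466, 0.496 and 0.668 CPM to 0.708, 0.955, 0.891 and 1.23 CPM. Its log2 fold change was 0.78 (SE 0.21, edgeR adjusted p = 0.0273). *nhr-173* rose by 0.54 (SE 0.15, edgeR adjusted p = 0.0276) although its groups overlapped. The calls of *nhr-167* and *nhr-173* were lost with single libraries left out. *nhr-173* lost its call without any 1 of DPY-26 cleavage replicates 1 and 3 and TEV control batch 1 replicates 1, 2 and 4, and *nhr-167* without any 1 of DPY-26 cleavage replicates 3 and 4 and TEV control batch 1 replicates 1, 2 and 3. Their adjusted p then reached 0.079 and 0.076. The other 11 X-linked calls were kept with each library left out in turn.

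The other 3 X-linked members did not pass the test. *nhr-17*, the most abundant of the X-linked receptors, varied widely, with 76.8, 163, 56.6 and 129 CPM in the controls and 124, 51.0, 125 and 56.0 CPM after DPY-26 cleavage. Its log2 fold change was -0.26 with an interval of -1.08 to 0.56 (2 SE to either side), beside a median of 0.61 over all X-linked genes. An interval of 2 SE is narrow for 4 samples a group, so a departure from that median is not shown. *nhr-91*, the worm orthologue of the germ cell nuclear factor GCNF, had 12.8, 14.8, 28.6 and 28.9 CPM in the controls and 43.4, 20.9, 42.2 and 39.5 CPM in the cut samples, a log2 fold change of 0.78 (SE 0.32, edgeR adjusted p = 0.106). *nhr-137* had a log2 fold change of 0.24 (SE 0.14, edgeR adjusted p = 0.245). Its neighbours *nhr-120* and *nhr-173*, which lie with it between 6636561 and 6669011 on X, both rose.

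**Figure D2:**
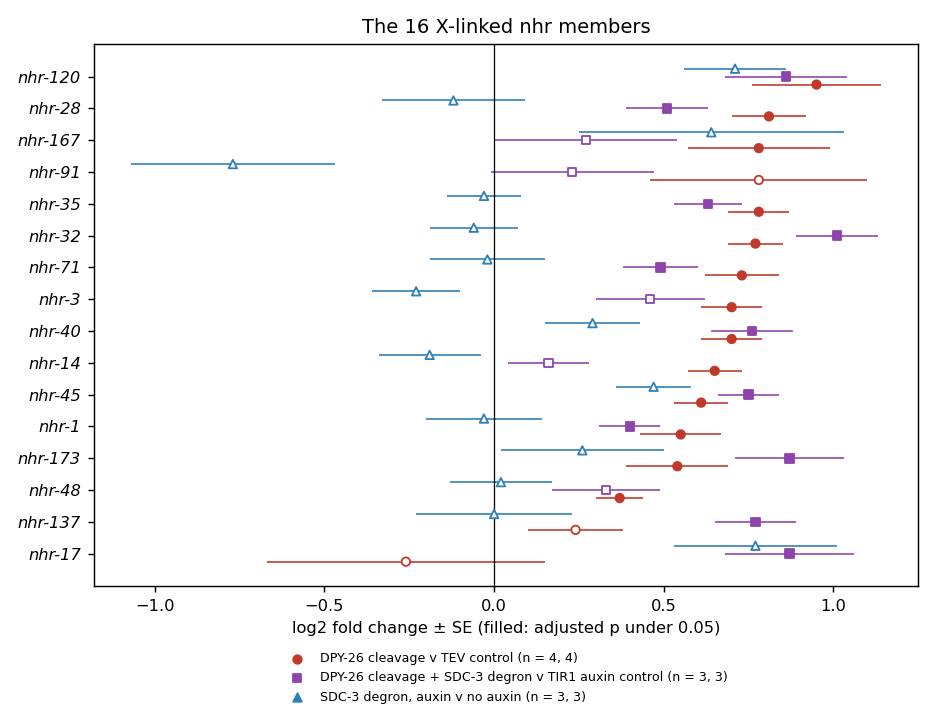
Log2 fold change of each of the 16 X-linked members after DPY-26 cleavage, after DPY-26 cleavage with SDC-3 degradation and after SDC-3 degradation alone, each against its control, with bars of 1 SE to either side and filled points where the adjusted p was under 0.05. After DPY-26 cleavage 13 of 16 were called higher, after DPY-26 cleavage with SDC-3 degradation 11 of 16, and *nhr-17* is the member below 0 after DPY-26 cleavage, at -0.26.

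The direct contrasts in batch 1 asked whether the X-linked rise differed between cleaved proteins. Set against SCC-1 cleavage, 11 of 16 X-linked members were higher after DPY-26 cleavage and 0 were lower, beside 64.6% higher and 2.36% lower over all X-linked genes. Set against KLE-2 cleavage 4 were higher and 0 lower, beside 25.2% and 0.0925%. That count was 9 without KLE-2 cleavage replicate 3, a library left out after it was seen to stand apart, and 7 with DESeq2 or with TMM factors taken from autosomal genes. For the 0 lower, an unadjusted p under 0.05 and DESeq2 gave 0 in both contrasts. After KLE-2 cleavage itself 0 X-linked members passed against the TEV control, where 0.555% of X-linked genes rose and 0.833% fell. An unadjusted p under 0.05 gave 3 higher and 0 lower, and DESeq2 gave 1 higher and 0 lower. The largest value was that of *nhr-91*, at 1.2 (SE 0.32, edgeR adjusted p = 0.121), with 54.2, 32.6, 61.9 and 49.02 CPM in the 4 KLE-2 samples. The other 15 lay between -0.22 and 0.36.

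The X-linked receptors also rose when DPY-26 was cut and SDC-3 degraded together, compared with the TIR1 auxin control. Here 11 of 16 rose and 0 fell, with all 16 above 0, beside 49.6% higher and 0.185% lower over all X-linked genes. The median log2 fold change was 0.57 for the members and 0.58 for all X-linked genes. For the 0 lower, an unadjusted p under 0.05 and DESeq2 also gave 0. In both this comparison and that of DPY-26 cleavage alone, which share no samples, 9 members rose, or 81.8% of the 11 and 69.2% of the 13, beside 83.3% and 59.7% over all X-linked genes that rose. *nhr-32* rose most, from 18.5, 14.4 and 17.7 CPM in the TIR1 control to 36.4, 33.3 and 31.7 CPM (log2 fold change 1.01, SE 0.12, edgeR adjusted p = 0.00326). *nhr-45* followed the same course, from 37.0, 33.1 and 37.8 CPM to 64.2, 58.2 and 58.5 CPM (log2 fold change 0.75, SE 0.09, edgeR adjusted p = 0.00362), and *nhr-40* rose by 0.76 (SE 0.12). *nhr-17*, which spread so widely in batch 1, was tighter here, at 53.6, 43.5 and 47.2 CPM in the control and 114.5, 65.1 and 83.2 CPM in the double strain. Its rise of 0.87 (SE 0.19, edgeR adjusted p = 0.0239) had no overlap between groups, and its exons overlap those of *nlp-76* on the same strand. The neighbours *nhr-120*, *nhr-173* and *nhr-137* rose by 0.86, 0.87 and 0.77.

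*nhr-14* was among the X-linked members that did not pass, at 26.8, 23.1 and 21.2 CPM in the TIR1 control and 29.9, 24.7 and 24.8 CPM with both proteins removed. Its log2 fold change was 0.16 with an interval of -0.08 to 0.41, against 0.65 after DPY-26 cleavage alone. The difference between these effects, tested as an interaction added after the data were seen, was -0.50 (SE 0.15, unadjusted p = 0.00519, edgeR adjusted p = 0.330). It spans batches 1 and 3, and only the batch 3 groups had auxin and TIR1. Batch, auxin, TIR1 and SDC-3 loss cannot be told apart in it. The same test for *nhr-17* gave 1.11 (SE 0.54). No member passed this interaction test in edgeR on X or the autosomes, where an unadjusted p under 0.05 gave 1 higher and 1 lower on X and 10 higher and 13 lower on the autosomes. DESeq2 was not run for it. Over all X-linked genes the interaction called 0.0463% higher and 0% lower, and over all autosomal genes 0.0254% and 0.0339%. The count of 11 fell to 7 without replicate 2 of the double strain, to 6 without its replicate 3 and to 7 without TIR1 auxin control replicate 3. Calls that were lost in at least 1 such fit included those of *nhr-1*, *nhr-28*, *nhr-120* and *nhr-17*, the last without replicate 3 of the double strain or without TIR1 auxin control replicates 2 or 3 (adjusted p up to 0.096). *nhr-1* lost its call without any 1 library but TIR1 auxin control replicate 1, *nhr-28* without any 1 but TIR1 auxin control replicate 2, and *nhr-120* without replicates 2 or 3 of the double strain or TIR1 auxin control replicate 2.

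**Figure D3:**
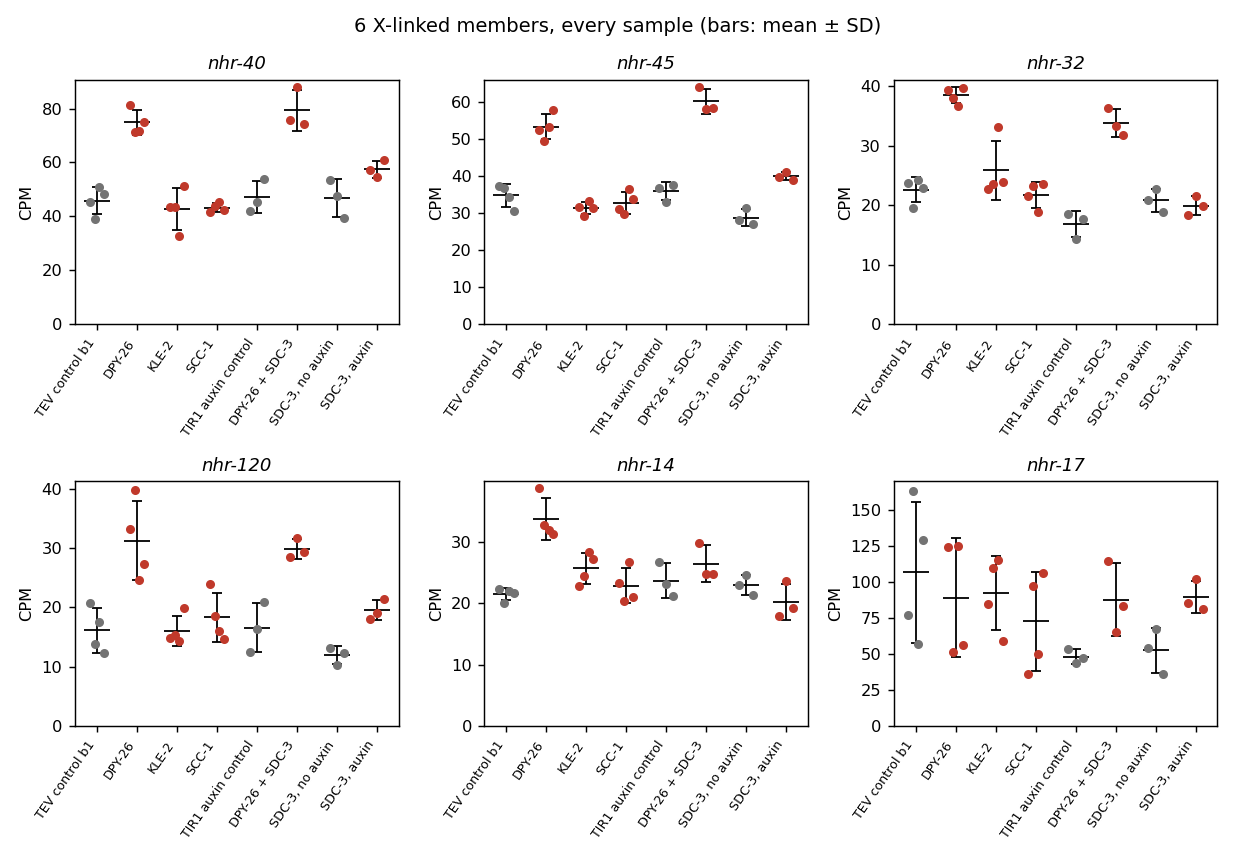
CPM in every sample (points, with the mean ± SD of each group) of 6 X-linked members in the groups of batches 1 and 4 and in the groups of batch 3 with TIR1. *nhr-40* sits between 71.2 and 81.4 CPM in the 4 samples of DPY-26 cleavage and between 39.2 and 50.8 CPM in the 4 TEV controls, while *nhr-17* spreads from 51.0 to 125 CPM and from 56.6 to 163 CPM in the same groups.

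Degrading SDC-3 alone gave 0 X-linked members past the test, where 0.879% of X-linked genes rose and 0.0463% fell. The median log2 fold change was -0.01 for the members and 0.14 for all X-linked genes. An unadjusted p under 0.05 gave 3 higher and 1 lower, and DESeq2 gave 3 higher and 0 lower. The nearest to a call was *nhr-120*, with 18.1, 19.1 and 21.4 CPM in auxin and 13.2, 10.3 and 12.3 CPM in ethanol (log2 fold change 0.71, SE 0.15, edgeR adjusted p = 0.0659). *nhr-45* had 39.8, 41.2 and 39.1 CPM in auxin and 28.1, 31.3 and 27.1 CPM in ethanol (log2 fold change 0.47, SE 0.11, edgeR adjusted p = 0.0797). *nhr-17* had 85.2, 102 and 80.8 CPM in auxin and 54.1, 67.1 and 36.1 CPM in ethanol, a log2 fold change of 0.77 (SE 0.24, edgeR adjusted p = 0.126). In these 3 receptors every auxin sample lay above every ethanol sample. With the replicate number as a block, *nhr-17* was the 1 X-linked member called (adjusted p = 0.036). Without SDC-3 degron without auxin replicate 3, the library with the low TMM factor, 2 X-linked members were called.

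Cohesin cleavage was read in the same 16 X-linked receptors. After SCC-1 cleavage 2 of 16 rose and 0 fell, beside 14.9% of X-linked genes that rose and 16.6% that fell, with medians of 0.07 and 0.01. For the 0 lower, an unadjusted p under 0.05 and DESeq2 gave 0 and the replicate block gave 1. *nhr-91* was the larger, at 43.1, 57.9, 49.3 and 66.5 CPM against 12.8, 14.8, 28.6 and 28.9 CPM in the controls. All 4 cut samples lay above the controls (log2 fold change 1.32, SE 0.29, edgeR adjusted p = 0.00930). *nhr-35* rose by 0.37 (SE 0.10, edgeR adjusted p = 0.0209) and lost its call without TEV control batch 1 replicate 1 or 2 (adjusted p 0.061 and 0.065). With COH-1 and SCC-1 both cut, 4 rose and 0 fell, beside 10.6% and 9.39% of X-linked genes, and the median was 0.32 for the members and 0.07 for all X-linked genes. At an unadjusted p under 0.05 there were 8 higher and 1 lower, DESeq2 gave 0 lower, and the replicate block gave 7 higher.

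The largest of these was *nhr-3*, at 35.4, 26.6 and 28.3 CPM against 15.7, 15.3 and 11.98 CPM in the TEV controls of batch 2 (log2 fold change 1.07, SE 0.16, edgeR adjusted p = 0.00912). COH-1 cleavage alone left *nhr-3* at 12.96, 15.6 and 17.9 CPM, and the double cleavage was higher than it in a direct contrast, where *nhr-3* was the 1 X-linked member called (2 with the replicate block), beside 3.98% higher and 6.99% lower over X-linked genes. *nhr-35* rose by 0.64 (SE 0.13), *nhr-173* by 0.60 (SE 0.15) and *nhr-1* by 0.53 (SE 0.14). *nhr-35* lost its call without replicate 1 or 3 of the double cleavage or TEV control batch 2 replicate 3, *nhr-173* without any 1 library but replicate 1 of the double cleavage, and *nhr-1* without any 1 but TEV control batch 2 replicate 1. *nhr-91* was not called with both cut, at 37.2, 33.3 and 30.8 CPM against controls at 49.8, 19.2 and 42.5 CPM (log2 fold change -0.14). Its change from COH-1 cleavage to the double cleavage minus its change after SCC-1 cleavage alone, also tested as an interaction added after the data were seen, was -1.58 (SE 0.38, edgeR adjusted p = 0.0527), and no member passed that test in edgeR (unadjusted p under 0.05: 2 higher and 1 lower on X, 11 higher and 15 lower on the autosomes, DESeq2 not run), beside 0.879% of X-linked genes higher and 1.57% lower and 0.804% and 1.07% of autosomal genes. The changes set against each other in that interaction come from batches 2 and 1, so batch and COH-1 cleavage cannot be told apart in it. Without TEV control batch 2 replicate 3 or without replicate 3 of the double cleavage 1 X-linked member was called higher, and without its replicate 1 or 2 there were 2. *nhr-3* kept its call in each of these fits. Without TEV control batch 2 replicate 2, 1 X-linked member was called lower.

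COH-1 cleavage alone gave 0 members past the edgeR test on X and 0 on the autosomes, where 0.0463% of X-linked genes rose, 0% fell and 0% of autosomal genes went either way. An unadjusted p under 0.05 gave 1 higher and 0 lower on X and 10 higher and 3 lower on the autosomes, and DESeq2 gave 0. The medians were 0.12 on X and 0.11 on the autosomes, beside 0.03 and -0.01 over all genes. The study tested COH-1 cleavage against the TEV control with DESeq2, with genes that oscillate during development left out. It called many more genes in both directions, most with small changes. The fit here, with edgeR, no pairing of replicates and 3 samples a group, called 1 gene higher and 0 lower of 13982. The study also speaks of 3 replicate batches. Counts over all genes with DESeq2 or the replicate block are not given here, and the reason for the different counts was not tested. Having 0 members called does not show that COH-1 cleavage left the receptors unchanged.

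On the autosomes more receptors rose than fell after DPY-26 cleavage, while among all autosomal genes more fell than rose. Of 180 autosomal members 22 rose and 6 fell, which is 12.2% and 3.33%, beside 5.91% and 13.8% over all autosomal genes. The median log2 fold change was 0.07 for the members and -0.07 for all autosomal genes. With TMM factors from autosomal genes alone 30 rose and 2 fell, so 93.8% of the calls were higher in place of 78.6%. Those factors moved the median of all genes from -0.013 to 0.068, a step no smaller than the medians compared here. The share of all autosomal genes called with them is not given. The contrast with all autosomal genes is therefore shown only with TMM factors from all genes. The count of rises was 11 without TEV control batch 1 replicate 2 and 12 without its replicate 4, and 3 fell without its replicate 1, 2 or 3. Later-stage markers summed to 1171 to 1482 CPM after DPY-26 cleavage and 1235 to 1528 CPM in the controls, and moult markers to 7270 to 10100 CPM and 8373 to 10930 CPM, so both ranges overlapped.

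All but 1 of the receptors that rose lay on chromosome V, where 21 of 126 members (16.7%) rose beside 9.32% of all genes of that chromosome. On chromosomes I to IV it was 1 of 54 (1.85%) beside 4.79%. Of these 21, 18 (85.7%) sat in runs of neighbouring members no more than 50 kb apart, beside 77% of all 126 members of the chromosome. The chromosome V run singled out after its values were seen spans 104.5 kb from 2192485 to 2296977 and holds 19 members. There 9 rose after DPY-26 cleavage, namely *nhr-228*, *nhr-96*, *nhr-126*, *nhr-56*, *nhr-134*, *nhr-103*, *nhr-18*, *nhr-59* and *nhr-115*, with a median log2 fold change of 0.36 over the run. After SCC-1 cleavage, with the same controls, 5 of the 19 rose (median 0.38), beside 18% of all genes on chromosome V. With COH-1 and SCC-1 both cut 4 rose, beside 14.5%. With DPY-26 cut and SDC-3 degraded only *nhr-56* and *nhr-59* were called, beside 6.59%. Another chromosome V run, of 7 members from 3844429 to 3908452, had a median of -0.50 after DPY-26 cleavage with 0 called higher. Neighbouring copies can share reads, and their counts are then uncertain. *nhr-59* had 2.65, 2.14, 3.42 and 2.72 CPM in the controls and 4.89, 4.47, 5.59 and 5.01 CPM in the cut samples (log2 fold change 0.86, SE 0.15, edgeR adjusted p = 0.00387). *nhr-115* had the largest rise of the autosomal members, from 3.12, 2.27, 2.35 and 2.66 CPM to 3.27, 6.14, 4.27 and 7.14 CPM. Its log2 fold change of 1.00 (SE 0.24, edgeR adjusted p = 0.0171) had no overlap between the groups but lost its call without TEV control batch 1 replicate 2 (adjusted p 0.054). Outside the run of 19 members, *nhr-50* rose by 0.97 (SE 0.23), *nhr-147* by 0.87 (SE 0.17) and *nhr-211* by 0.84 (SE 0.12, edgeR adjusted p = 0.00187), the last from 1.12 to 1.24 CPM in the controls to 1.89 to 2.33 CPM.

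Among the 6 autosomal receptors that fell after DPY-26 cleavage were 2 of the 5 most abundant. *nhr-114* fell from 147, 118, 108 and 164 CPM to 82.7, 71.7, 75.02 and 95.8 CPM, with no overlap (log2 fold change -0.73, SE 0.15, edgeR adjusted p = 0.00988). *nhr-68* had 89.1, 96.7, 96.0 and 94.9 CPM after cleavage, each below the lowest of the 4 controls at 108 CPM, a log2 fold change of -0.24 that was past the threshold but not without TEV control batch 1 replicate 4 (adjusted p 0.052) or with TMM factors from autosomal genes (adjusted p 0.059). *nhr-157* fell from 1.44, 1.40, 1.78 and 1.34 CPM to 0.686, 1.00, 0.953 and 0.813 CPM (log2 fold change -0.79, SE 0.17, edgeR adjusted p = 0.0102). The others were *nhr-277* (-0.51), *nhr-12* (-0.49) and *nhr-61* (-0.30). Each of these 3 was lost without any 1 of TEV control batch 1 replicates 1, 2 and 3 and in further fits that left out a library.

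With SDC-3 degraded as well, *nhr-114* fell again, from 131, 157 and 107 CPM in the TIR1 control to 63.1, 62.02 and 67.3 CPM (log2 fold change -1.04, SE 0.14, edgeR adjusted p = 0.00497). In that comparison 8 autosomal members rose and 4 fell, beside 4.01% and 4.02% of autosomal genes, with medians of 0.10 and -0.08. The rises were led by *nhr-53*, from 2.53, 3.14 and 3.09 CPM to 9.63, 6.997 and 6.58 CPM (log2 fold change 1.43, SE 0.19, edgeR adjusted p = 0.00450), and by *nhr-11*, from 7.16, 5.71 and 8.23 CPM to 17.6, 16.8 and 13.2 CPM (log2 fold change 1.18, SE 0.17). *nhr-277* (-0.84), *nhr-168* (-0.65) and *nhr-113* (-0.44) also fell, the last 2 not past the threshold with any 1 library left out or with TMM factors from autosomal genes. Between this comparison and DPY-26 cleavage alone, 3 members rose in both (37.5% of the 8 and 13.6% of the 22, beside 43.7% and 29.7% over all autosomal genes that rose) and 2 fell in both. With TMM factors from autosomal genes 17 rose and 2 fell, which is 89.5% of the calls higher in place of 66.7%, DESeq2 gave 14 and 6, and the replicate block gave 30 and 7. The shares of 4.01% and 4.02% belong to the fit that gave 8 and 4. Shares of all autosomal genes under these alternatives are not given, so the larger counts are not a result about the receptors. The rises numbered 2 without replicate 1 or 2 of the double strain or TIR1 auxin control replicate 2, 4 without TIR1 auxin control replicate 1 and 5 without replicate 3 of the double strain. There were 2 falls without any 1 replicate of the double strain or without TIR1 auxin control replicate 2. Moult markers summed to 1822 to 3423 CPM with both proteins removed and 2470 to 4954 CPM in the TIR1 control.

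**Figure D4:**
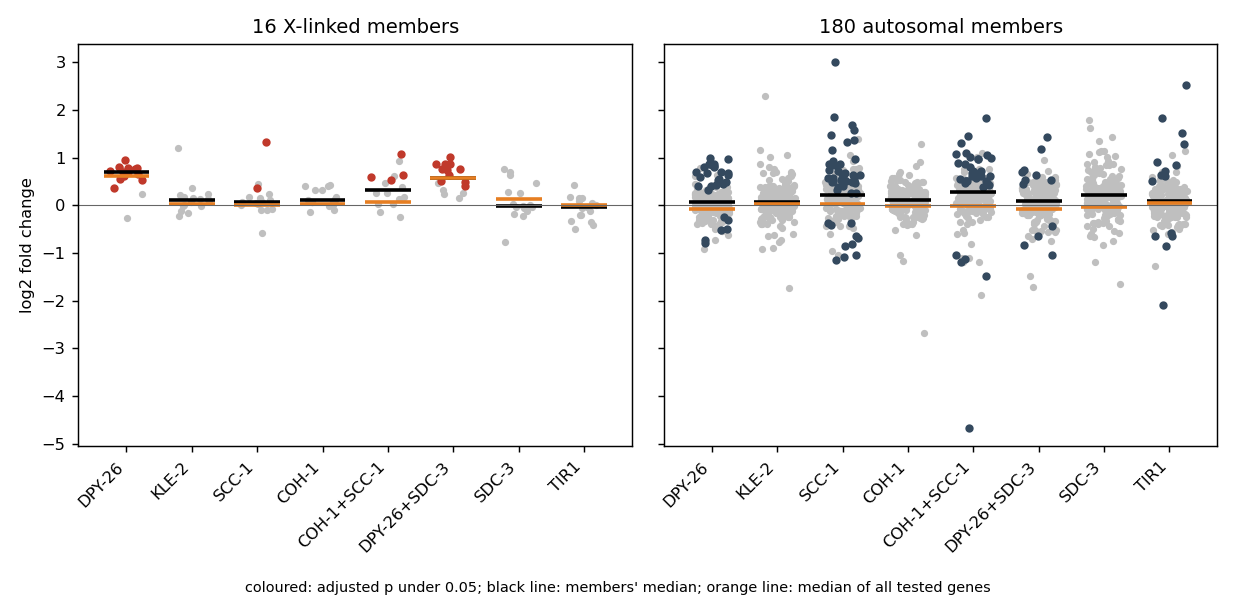
Log2 fold change of every member in the 7 comparisons with a control and between the auxin controls with and without TIR1, X-linked and autosomal members apart, with members called at an adjusted p under 0.05 in colour, the members' median as a black line and that of all tested genes as an orange line. The X-linked median is 0.70 after DPY-26 cleavage and 0.57 with SDC-3 degraded as well, and the autosomal medians of the members lie between 0.07 and 0.29.

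Autosomal receptors also changed after SCC-1 cleavage. Of the 180 autosomal members 38 rose (21.1%) and 10 fell (5.56%), beside 14.3% and 14.2% of all autosomal genes, and the median was 0.21 for the members and 0.03 for all autosomal genes. The rises numbered 24 without TEV control batch 1 replicate 1, 22 without its replicate 2 and 23 without SCC-1 cleavage replicate 1. *nhr-265* rose from 0.151, 0.169, 0.294 and 0.513 CPM to 1.92, 2.24, 2.48 and 2.91 CPM (log2 fold change 3.00, SE 0.34, edgeR adjusted p = 0.000500). These values rest on 7, 8, 19 and 33 reads in the controls and 91, 89, 158 and 139 after cleavage, so the size of the rise is uncertain. *nhr-172* rose from 0.387, 0.487, 0.403 and 0.591 CPM to 1.16, 1.46, 1.98 and 1.51 CPM (log2 fold change 1.68, SE 0.22, edgeR adjusted p = 0.000882). *nhr-112* rose by 1.85, *nhr-263* by 1.58 and *nhr-260* by 1.48. Among abundant receptors *nhr-97* rose, from 142, 153, 178 and 188 CPM to 241, 228, 265.2 and 256 CPM (log2 fold change 0.56, SE 0.10, edgeR adjusted p = 0.00374). The receptors that fell were led by *nhr-181* (-1.14), *nhr-41* (-1.08), *nhr-235* (-1.03), *nhr-43* (-0.86) and *nhr-121* (-0.81), of which *nhr-235* lost its call without any 1 of SCC-1 cleavage replicates 2, 3 and 4 and TEV control batch 1 replicates 1 and 2. Later-stage markers summed to 249 to 777 CPM after SCC-1 cleavage and 1235 to 1528 CPM in the controls, with no overlap, and moult markers to 5417 to 10890 CPM and 8373 to 10930 CPM. Neuron markers summed to 1167 to 1244 CPM against 963.6 to 1090 CPM and muscle markers to 9781 to 11800 CPM against 9330 to 9673 CPM, also with no overlap. The part of these markers in the receptor changes was not tested.

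*nhr-157*, which fell after DPY-26 cleavage, rose after SCC-1 cleavage, to 2.46, 2.54, 2.37 and 2.72 CPM (log2 fold change 0.74), and was the 1 member of 196 called in both directions among the 7 comparisons. In the direct contrast it was lower after DPY-26 than after SCC-1 cleavage, at -1.51 on the log2 scale. In that contrast 12 autosomal members were higher after DPY-26 cleavage and 25 lower, beside 10.7% and 17.3% of autosomal genes. With TMM factors from autosomal genes the counts were 16 and 17. The members furthest apart were *nhr-265* at -3.38 and *nhr-172* at -1.99, both lower after DPY-26 cleavage, and *nhr-115* at 1.46 and *nhr-41* at 1.15, both higher.

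KLE-2 cleavage gave 0 autosomal members past the edgeR test, where 0.356% of autosomal genes rose and 0.652% fell. An unadjusted p under 0.05 gave 12 higher and 8 lower, and DESeq2 gave 4 higher and 3 lower. *nhr-265* was at 2.04, 0.696, 1.29 and 1.70 CPM there, above all 4 controls without passing the test. In the direct contrast of SCC-1 and KLE-2 cleavage 0 members passed and 0% of all genes did in either direction (unadjusted p under 0.05: 0 on X, 1 higher and 2 lower on the autosomes, DESeq2 0), so no receptor was shown to differ between these cleavages. Against KLE-2 cleavage, DPY-26 cleavage had 2 autosomal members higher (*nhr-115* at 1.93 and *nhr-53* at 0.90) and 2 lower (*nhr-265* at -2.68 and *nhr-157* at -1.20), beside 1.58% and 2.05%.

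With COH-1 and SCC-1 both cut, 31 autosomal members rose and 5 fell, beside 10% and 11% of all autosomal genes. The median was 0.29 for the members and -0.01 for all autosomal genes. *nhr-147* rose most, from 0.402, 0.538 and 0.679 CPM to 1.64, 2.09 and 1.92 CPM (log2 fold change 1.83, SE 0.25, edgeR adjusted p = 0.00723). *nhr-112* rose by 1.46, from 2.24, 1.14 and 2.68 CPM to 5.23, 5.25 and 6.17 CPM, *nhr-206* by 1.30, *nhr-231* by 1.10 and *nhr-225* by 1.07. *nhr-43* had the smallest adjusted p of the receptors that fell, from 20.7, 18.8 and 21.8 CPM to 8.68, 9.32 and 8.85 CPM (log2 fold change -1.19, SE 0.11, edgeR adjusted p = 0.00343). *nhr-41* (-1.12), *nhr-181* (-1.47) and *nhr-113* (-1.04, adjusted p 0.068 with the replicate block) fell too. *nhr-235* was called lower on few reads, 28, 125 and 12 in the controls and 3, 1 and 3 in the cut samples. The controls held 24.3 times the reads per library size, with a 95% counting interval of 11.55 to 61.5 that covers counting error only. Most of the control reads came from TEV control batch 2 replicate 2, and without it (an alternative added after the data were seen) the ratio was 8.22 with an interval of 3.64 to 21.7.

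Between SCC-1 cleavage and this double cleavage, which have separate controls, 13 autosomal members rose in both (34.2% of the 38 and 41.9% of the 31, beside 34.8% and 49.6% over all autosomal genes that rose) and 4 fell in both (40% of the 10 and 80% of the 5, beside 41.3% and 53.4% over those that fell). Against COH-1 cleavage alone, the double cleavage was higher in *nhr-50*, *nhr-112*, *nhr-147*, *nhr-178* and *nhr-263* and lower in *nhr-41*, *nhr-43*, *nhr-73*, *nhr-113* and *nhr-181*, which is 5 in each direction beside 4.17% and 5.35% of autosomal genes. With every library kept, the replicate block gave 42 higher and 4 lower, and DESeq2 gave 39 and 7. Shares of all autosomal genes under these alternatives are not given. The count of 31 rested on all libraries. It was 16 without TEV control batch 2 replicate 3, and 5, 9 and 3 without replicates 1, 2 and 3 of the double cleavage. Falls numbered 8 without TEV control batch 2 replicate 2 and 1, 2 and 1 without replicates 1, 2 and 3 of the double cleavage. Of the receptors named here *nhr-147* and *nhr-43* kept their calls in each of these fits. *nhr-112*, *nhr-206*, *nhr-231*, *nhr-181* and *nhr-235* lost theirs without any 1 of the 3 double cleavage libraries. In the same samples later-stage markers summed to 108 to 318 CPM against 721 to 1120 CPM in the controls, moult markers to 2762 to 4606 CPM against 6024 to 10550 CPM, and germline markers to 183 to 209 CPM against 251 to 349 CPM. Intestine markers summed to 7050 to 7251 CPM against 7381 to 8114 CPM, neuron markers to 1519 to 1715 CPM against 949 to 1247 CPM and muscle markers to 14710 to 15480 CPM against 10750 to 12160 CPM. None of these ranges overlapped, and their part in the receptor changes was not tested.

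*nhr-41*, the worm orthologue of the vertebrate testicular receptors TR2 and TR4, was lower in several groups. It had 83.3, 83.8, 71.6 and 92.6 CPM in the TEV controls of batch 1 and 27.9, 45.5, 26.9 and 58.9 CPM after SCC-1 cleavage (log2 fold change -1.08, SE 0.24, edgeR adjusted p = 0.0115). In batch 2 it went from 79.9, 51.8 and 69.4 CPM to 27.8, 39.0 and 26.01 CPM with COH-1 and SCC-1 cut (log2 fold change -1.12, SE 0.21, edgeR adjusted p = 0.0164), a call that was lost without replicate 1 or 3 of the double cleavage. It stayed at 95.3, 68.9, 87.3 and 92.2 CPM after DPY-26 cleavage. The steepest difference was between the auxin controls, with 62.2, 70.0 and 63.9 CPM without TIR1 and 20.1, 10.6 and 15.04 CPM with TIR1, although neither strain has a cleavage site or a degron (log2 fold change -2.09, SE 0.21, edgeR adjusted p = 0.000699). Adding DPY-26 cleavage and SDC-3 degradation to TIR1 left it at 19.6, 17.6 and 20.3 CPM. In the SDC-3 degron strain it had 14.1, 29.1 and 16.6 CPM in auxin and 64.7, 70.7 and 50.6 CPM in ethanol (log2 fold change -1.64, SE 0.29, edgeR adjusted p = 0.0537), and with the replicate block the adjusted p was 0.0107.

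Other receptors also differed between the auxin controls with and without TIR1. Of the autosomal members 10 were higher and 5 lower with TIR1 than in the TEV auxin control, beside 4.74% and 9.23% of autosomal genes, and 0 X-linked members were called, beside 3.75% and 12.2% (unadjusted p under 0.05: 1 higher and 3 lower, DESeq2 0 higher and 1 lower). The replicate block gave 9 lower on the autosomes and 2 on X. *nhr-265* was at 5.596, 6.86 and 3.21 CPM with TIR1 and 0.728, 1.17 and 0.912 CPM without (log2 fold change 2.52, SE 0.33, edgeR adjusted p = 0.00160). *nhr-235* was higher by 1.83 (SE 0.43, edgeR adjusted p = 0.0239), *nhr-147* by 1.28 (adjusted p 0.053 with the replicate block) and *nhr-115* by 0.91, while *nhr-43* (-0.85), *nhr-21* (-0.65) and *nhr-113* (-0.57) were lower. Later-stage markers summed to 19.4 to 123 CPM with TIR1 and 636 to 1149 CPM without, and moult markers to 2470 to 4954 CPM and 7869 to 10720 CPM. In the SDC-3 degron strain the corresponding sums were 29.9 to 174 CPM in auxin and 369 to 883 CPM in ethanol for later stages, and 1957 to 5725 CPM and 8428 to 11130 CPM for moult, and neuron markers summed to 1224 to 1366 CPM and 1053 to 1130 CPM. These ranges did not overlap, and their part in the changes of *nhr-41* and the other receptors was not tested. SDC-3 degradation itself has no control with TIR1, auxin and no degron in its own batch, so its effect and that of auxin with TIR1 cannot be told apart there.

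**Figure D5:**
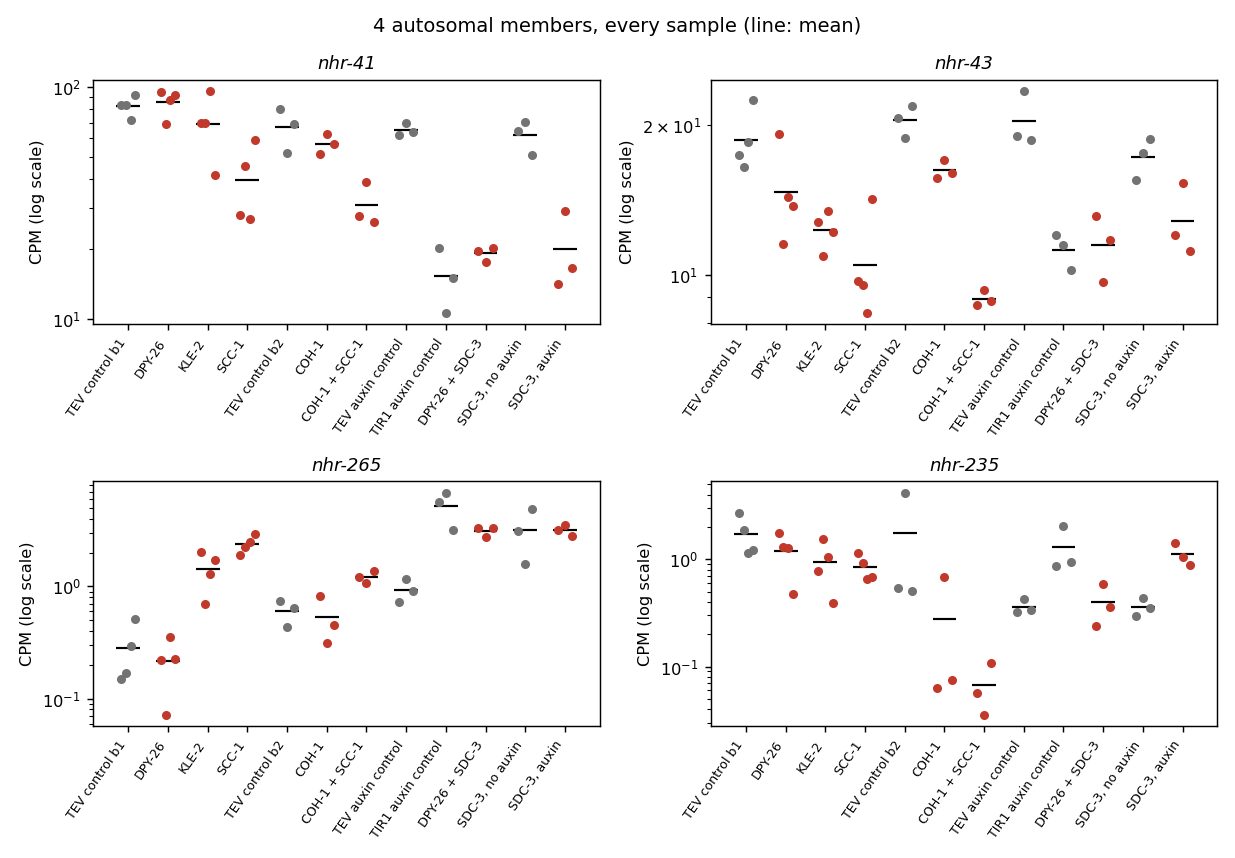
CPM in every sample (points, log axis, with the group mean as a line) of the 4 autosomal members *nhr-41*, *nhr-43*, *nhr-265* and *nhr-235* in all 12 groups. *nhr-41* lies between 10.6 and 20.1 CPM in the TIR1 auxin control and between 62.2 and 70.0 CPM in the TEV auxin control, and *nhr-265* between 3.21 and 6.86 CPM and between 0.728 and 1.17 CPM in the same groups.

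SDC-3 degradation gave 0 autosomal members past the edgeR test, beside 0.533% of autosomal genes higher and 0.381% lower. An unadjusted p under 0.05 gave 25 higher and 8 lower, and DESeq2 gave 11 higher and 5 lower. The median was 0.21 for the members and -0.03 for all autosomal genes. The replicate block called 3 higher and 1 lower. Without SDC-3 degron without auxin replicate 3 there were 10 higher and 2 lower, and without SDC-3 degron with auxin replicate 2 there were 3 higher and 1 lower.

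Grouped by known roles, the receptors of fat and propionate metabolism and diet (*nhr-49*, its partners *nhr-80*, *nhr-13* and *nhr-66*, and *nhr-10*, *nhr-68*, *nhr-62*, *nhr-64* and *nhr-114*) mostly did not pass. After DPY-26 cleavage 0 of these 9 autosomal receptors rose and 2 fell, *nhr-68* and *nhr-114*, beside 5.91% higher and 13.8% lower over all autosomal genes. After SCC-1 cleavage 0 rose and 2 fell, *nhr-13* (-0.42) and *nhr-68* (-0.36), beside 14.3% and 14.2%. With COH-1 and SCC-1 cut *nhr-64* rose by 0.42, a call lost with each library left out in turn, beside 10% higher and 11% lower. With DPY-26 and SDC-3 removed *nhr-114* was the 1 that fell, beside 4.01% and 4.02%. Of the receptor types conserved outside nematodes 6 of 7 were members. Among them the X-linked *nhr-48* rose after DPY-26 cleavage, where 69.2% of X-linked genes did. After SCC-1 cleavage the X-linked *nhr-91* rose, beside 14.9% of X-linked genes, and the autosomal *nhr-41* fell, beside 14.2% of autosomal genes. *nhr-6*, *nhr-8* and *nhr-67*, the relatives of NR4A, of vitamin D-type receptors and of tailless, were called in none of the 7 comparisons with a control, with log2 fold changes between -0.34 and 0.38.

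Of the 6 receptors tied to stress, immunity and xenobiotics 4 rose after DPY-26 cleavage and 0 fell. These were all 3 X-linked receptors of the list, *nhr-14*, *nhr-28* and *nhr-45*, where 69.2% of all X-linked genes rose, and the autosomal *nhr-176*, a sensor of the drug thiabendazole, at 0.42. The call of *nhr-176* was lost without DPY-26 cleavage replicate 1 or 3 or TEV control batch 1 replicate 2, 3 or 4. With SDC-3 degraded as well 3 rose, *nhr-28* and *nhr-45* on X, where 49.6% of all X-linked genes rose, and on the autosomes, where 4.01% did, the hypoxia-induced *nhr-57* (0.69), whose call was lost without any 1 library but replicate 3 of the double strain. Of the 6 members tied to the formation of single tissues *nhr-1* and *nhr-40*, the 2 on X, rose in both of these comparisons, beside the same shares of 69.2% and 49.6%. *nhr-1* also rose with COH-1 and SCC-1 cut, beside 10.6%.

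Receptors of the superfamily with other names were read from a list of 5. *daf-12*, the X-linked steroid receptor of dauer and larval timing, rose by 0.42 after DPY-26 cleavage (edgeR adjusted p = 0.0327) and by 0.44 after SCC-1 cleavage (edgeR adjusted p = 0.0275), beside 69.2% and 14.9% of X-linked genes that rose. *sex-1*, an X-linked receptor that counts X chromosomes in the embryo, was at 4.05, 3.98 and 3.82 CPM with SDC-3 degraded and 8.39, 7.67 and 7.57 CPM in ethanol (log2 fold change -1, SE 0.15, edgeR adjusted p = 0.0431), where 0.0463% of X-linked genes were lower. Of 9 cofactors and enzymes of ligand synthesis 8 were tested. *daf-9*, the X-linked cytochrome P450 that makes the DAF-12 ligand, rose by 1.07 after DPY-26 cleavage (SE 0.11, edgeR adjusted p = 0.000538). There 69.2% of X-linked genes rose. With SDC-3 degraded as well *daf-9* rose by 0.55, beside 49.6% of X-linked genes. It fell by 1.08 on the log2 scale with COH-1 and SCC-1 cut, beside 9.39% that fell. *daf-36*, the oxygenase earlier in that pathway, fell by 0.66 on the log2 scale after DPY-26 cleavage and rose by 0.41 with COH-1 and SCC-1 cut. The lipid regulator *sbp-1* rose by 0.26 after DPY-26 cleavage and by 0.61 with COH-1 and SCC-1 cut, where the Mediator subunit *mdt-15*, a partner of *nhr-49*, rose by 0.40. After SCC-1 cleavage *din-1*, a co-repressor of DAF-12, rose by 0.49, *dhs-16*, a dehydrogenase of ligand synthesis, by 0.94, and *strm-1*, a methyltransferase that limits the ligand, by 1.42. Of the 8, *daf-9* was the 1 on X. Among the 7 on the autosomes 1 rose and 1 fell after DPY-26 cleavage, beside 5.91% and 13.8% of all autosomal genes. After SCC-1 cleavage 3 rose and 0 fell, beside 14.3% and 14.2%, and with COH-1 and SCC-1 cut 3 rose, beside 10%. *sbp-1* was also called higher with TIR1, beside 4.74%.

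Genes known to be controlled by nhr receptors were read from a list of 13, all autosomal, and the shares beside the counts are those of all autosomal genes. After DPY-26 cleavage 1 rose, the immune effector *irg-5*, and 2 fell, the desaturase *fat-7* and the propionate shunt gene *acdh-1*, beside 5.91% higher and 13.8% lower. After SCC-1 cleavage 1 rose (*irg-4*) and 4 fell (*acs-2*, *fat-5*, *acdh-1* and *hphd-1*), beside 14.3% and 14.2%. With COH-1 and SCC-1 cut 3 rose, *fat-7* by 2.10, *acs-2* and *irg-5*, and *icl-1* fell, beside 10% and 11%. With DPY-26 and SDC-3 removed *acs-2* (1.46), *fat-5* and *icl-1* rose and 0 fell, beside 4.01% and 4.02%. In the SDC-3 degron strain *lbp-8*, a lipid chaperone, was higher in auxin than in ethanol by 3.24 on the log2 scale (edgeR adjusted p = 0.0162), the 1 gene of the list called there, beside 0.533% higher and 0.381% lower, and *acs-2* and *icl-1* were lower with TIR1, beside 4.74% higher and 9.23% lower.

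Over the 7 comparisons 96 of 196 members were called in none. The other 100 are 51% of the members, beside 56.5% of all genes tested that were called in at least 1, and by region they are 16 of 16 X-linked members, beside 85.9% of X-linked genes, and 46.7% of the autosomal members, beside 51.2%. Of these 100, 60 were called in 1 comparison, 27 in 2, 12 in 3 and 1 in 4. Of the 70 nhr genes under the read minimum 3 had 0 reads in all samples and 36 had under 10 reads in every sample. There were 7 with at least 10 reads in all samples of at least 1 group, namely *nhr-26*, *nhr-214* and *nhr-281* on X and *nhr-187*, *nhr-196*, *nhr-199* and *nhr-251* on chromosome V. Of the members 168 had at least 10 reads in every sample, and 56 overlap the exons of another gene.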

How the data were processed

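The authors deposited, for each lane of each of the 40 samples (82 files), estimated counts of reads per transcript and TPM (scaled by effective length) made by Salmon, and per the submitters' processing notes the tools were cutadapt 2.5, Salmon 1.5.2 and STAR 2.7.9a. The library kit keeps strand, but whether Salmon used it and the transcriptome release are not given in the sources used here, so genes that overlap on opposite strands may share reads. The lanes were summed, transcripts were joined to genes of WBcel235 by name, and the estimated counts were rounded to whole reads. Reads on transcripts with no gene were at most 0.0128% of a sample. Totals ran from 20460404 to 88427247 reads, and the replicates' spread sets the precision of each value.

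Genes with at least 10 reads in 20 of 40 samples were tested with edgeR 4.0.16 in R 4.3.3 (TMM, quasi-likelihood test on the 2 groups compared, Benjamini-Hochberg over all genes, called at 0.05). The SE is the log2 fold change divided by the root of the F statistic. CPM values use TMM factors over all 40 libraries. The alternatives were DESeq2 1.42.0, RLE size factors, TMM factors from autosomal genes, other filters, all 40 samples in one fit, a replicate block, and each library left out in turn for the comparisons with a control. The scripts were tested on simulated data. Figures were drawn with matplotlib 3.10.9. Genes that oscillate during development were kept. Sequences of the members were not used here.

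The members and lists were chosen with earlier results of these data known. Named receptors were, in each comparison with a control, up to 5 with the largest and 5 with the smallest log2 fold change among those called with groups that do not overlap, on X and on the autosomes, together with receptors of known role and the 8 of each kind with the highest mean TPM over all 7 TEV controls of batches 1 and 2. Other receptors, among them those named from direct contrasts, from the TIR1 comparison and from the run on chromosome V, were named after their values were seen.

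Groups came from the labels, which also number the replicates. To see whether the numbers pair samples, each sample's deviation from its group mean was correlated with that of the sample of the same number in the other group. Every pair was over 0.1 for SCC-1 cleavage (r from 0.108 to 0.226), COH-1 cleavage (0.488 to 0.652), SDC-3 degradation (0.113 to 0.361), TIR1 (0.113 to 0.463) and the double cleavage against COH-1 cleavage (0.268 to 0.477). For the double cleavage against its TEV control (0.08 to 0.595) and DPY-26 cleavage with SDC-3 degradation (0.084 to 0.703) 1 of the 3 pairs was under 0.1. There every sample correlated best with its own number, the replicate 1 libraries of batches 2 and 3 shared a TPM scale, and the study speaks of replicate batches for the COH-1 libraries, so the block is given for these too, although they did not meet the limit of 0.1 in every pair. The replicate block is given beside these results where it changed a call or moved a count by over 1.5 times.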

Additional observations from a re-analysis of the deposited data

Results flagged for a closer look

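Of 252 groups of 4 samples examined in batch 1 (63 named receptors in 4 groups, CPM), 13 held a sample whose gap to its nearest neighbour passed Dixon's 95% critical value, and chance flags about 1 in 20. On X, *nhr-120* was at 19.8 CPM in KLE-2 cleavage replicate 4 against 14.3 to 15.3 CPM in the other 3 samples, and *nhr-137* at 15.5 CPM in SCC-1 cleavage replicate 3 against 19.5 to 20.3 CPM. *nhr-173* was at 17.2 CPM in TEV control replicate 3 against 13.5 to 13.7 CPM, and at 8.52 CPM in KLE-2 cleavage replicate 3 against 15.9 to 17.4 CPM. KLE-2 cleavage replicate 3 also stood out for *nhr-28*, at 14.3 CPM against 9.6 to 10.1 CPM, and for *nhr-32*, at 33.2 CPM against 22.7 to 23.8 CPM. That library has the lowest TMM factor of the 40, and its part in these values was not tested. SCC-1 cleavage replicate 3 stood out for *nhr-3*, at 22.8 CPM against 12.8 to 13.4 CPM, and on the autosomes for *nhr-115*, at 2.83 CPM against 1.59 to 1.66 CPM, and for *nhr-31*, which acts in the excretory cell, at 99.9 CPM against 67.9 to 71.1 CPM. The other 4 were *nhr-13* at 8.8 CPM in TEV control replicate 3 against 7.62 to 7.76 CPM, *nhr-60* at 1.73 CPM in TEV control replicate 4 against 1.15 to 1.23 CPM, *nhr-86* at 28.9 CPM in TEV control replicate 2 against 22.0 to 22.9 CPM, and *nhr-181* at 2.15 CPM in DPY-26 cleavage replicate 4 against 0.774 to 0.85 CPM.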

How the results depend on the processing

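None of the calls of named receptors changed direction under any alternative that was run. Of 85 named calls DESeq2 lost 0, a compared-sample filter 1, RLE size factors 2, TMM factors from autosomal genes 6, the replicate block 6, no filter beyond 1 read 8 and all 40 samples in one fit 21, and 36 were lost in at least 1 fit that left out a library. The cause was not tested. Counts under the alternatives are given without the shares of all genes called under them. A changed count is therefore not set apart from a change over all genes. TMM factors from autosomal genes gave, after DPY-26 cleavage, 2 lower autosomal members and a median of 0.15, with SDC-3 degraded as well 17 higher, 2 lower and a median of 0.16, for SDC-3 degradation medians of 0.02 on X and 0.23 on the autosomes, and 7 X-linked members higher against KLE-2 cleavage. DESeq2 gave 1 higher on X, 4 higher and 3 lower on the autosomes after KLE-2 cleavage, 3 higher on X, 11 higher and 5 lower for SDC-3 degradation, 14 higher autosomal members for DPY-26 and SDC-3 together, and 7 higher on X, 9 higher and 5 lower for DPY-26 against KLE-2 cleavage. For TIR1, DESeq2, RLE size factors and TMM factors from autosomal genes each gave 1 lower on X. In one fit of all 40 samples there were 1 higher on X, 5 higher and 3 lower on the autosomes after KLE-2 cleavage, 6 lower after SCC-1 cleavage, 8 lower with COH-1 and SCC-1 cut, 5 higher for DPY-26 with SDC-3, and 2 higher on X, 13 higher and 1 lower for SDC-3 degradation. For SDC-3 degradation the compared-sample filter gave 2 higher autosomal members, and no filter gave 2 higher, 1 lower and a median of 0.19.

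The replicate block gave 3 lower autosomal members after DPY-26 cleavage, 1 lower on X after SCC-1 cleavage, 7 higher on X with COH-1 and SCC-1 cut, 30 higher and 7 lower for DPY-26 with SDC-3, 2 lower on X and 9 lower for TIR1, 2 higher on X, 1 higher and 1 lower for DPY-26 against KLE-2 cleavage, and 2 higher on X for the double cleavage against COH-1 cleavage. For SDC-3 degradation the block gave 1 higher on X, 3 higher, 1 lower and a median of 0.22. For DPY-26 cleavage (r from -0.261 to 0.183) and KLE-2 cleavage (r from -0.204 to 0.31) 1 or more pairs were under 0.1 and not every sample correlated best with its own number, so there the samples were taken to share only a number.

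With single libraries left out, autosomal counts higher and lower ran from 11 to 24 and 3 to 8 after DPY-26 cleavage (median 0.06 to 0.14), 0 to 1 and 0 to 1 after KLE-2 cleavage, 22 to 41 and 8 to 12 after SCC-1 cleavage, 3 to 26 and 1 to 8 with COH-1 and SCC-1 cut, 2 to 10 and 2 to 4 for DPY-26 with SDC-3 and 0 to 10 and 0 to 2 for SDC-3 degradation (median 0.16 to 0.24). X-linked counts higher ran from 11 to 15 after DPY-26 cleavage, 1 to 2 after SCC-1 cleavage, 1 to 4 with COH-1 and SCC-1 cut (0 to 1 lower, median 0.25 to 0.43), 6 to 11 for DPY-26 with SDC-3 (median 0.50 to 0.64) and 0 to 2 for SDC-3 degradation (median -0.01 to 0.11). Without KLE-2 cleavage replicate 3, chosen after seeing the data, DPY-26 against KLE-2 cleavage had 9 higher on X and 4 higher and 4 lower on the autosomes.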
